A study of Homo sapiens with 12 samples.

Results

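A set of 45 genes for the enzymes that write and erase histone methylation was followed in H929 human myeloma cells on Affymetrix U133 Plus 2.0 arrays. They were chosen by name, as 26 lysine methyltransferase genes (writers, with the non-catalytic SUZ12 and EED), 12 lysine demethylase genes (erasers) and 7 protein arginine methyltransferase genes. The choice was made with earlier results of these data known. Every probe set (probes that together read 1 transcript) that the platform annotation assigns to 1 of these genes alone was taken, 142 in all, and 119 of them passed a filter on low values among 36395 tested probe sets. These 119 represent 44 of the 45 genes among 15587 genes tested; ASH1L had no probe set of its own in the annotation used here and was not analysed here. The 4 groups, with 3 arrays each, were untreated cells and cells given 250 nM CHR-3996, 1 µM tosedostat (CHR-2797) or both at these doses, the treated cells for 24 hours. CHR-3996 inhibits histone deacetylases and tosedostat inhibits aminopeptidases. H929 is 1 established line. The labels call the 3 samples of each group biological replicates and do not say what a replicate number marks or whether cultures were separate, so the p-values describe the spread between these samples alone.

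Histone methyltransferases transfer methyl groups from S-adenosylmethionine to lysine or arginine residues of histone tails or, for DOT1L, of the core of histone H3. Methylation of H3K4 and H3K36 marks active genes, methylation of H3K9 and H3K27 marks silent chromatin, and demethylases of the LSD1 and Jumonji families take the marks off again. The arrays measure the transcripts of these enzymes, and no mark was measured here.

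The values are log2 expression values normalized in dChip by the authors, so a difference of 1 is a 2-fold change, and levels of different probe sets cannot be compared. A gene was represented by the brightest of its tested probe sets, and it was called higher or lower at a Benjamini-Hochberg adjusted p under 0.05 in a limma fit to all 12 arrays, adjusted over all probe sets tested. Replicate arrays correlated at r of 0.978 to 0.983. All 9 plasma cell markers examined lay above the 40th percentile on every array, and of 8 markers of other cell types with a probe set 4 did so on every array and 2, CD14 and COL3A1, on none. The summed linear level of the plasma cell markers ranged from 43389 to 45385 on the untreated arrays and from 20216 to 32402 on the CHR-3996 arrays. With tosedostat it ranged from 44535 to 49486, and with the combination from 28033 to 29019. The summed level of the other markers ranged from 542 to 696 in untreated cells and from 476 to 705 under CHR-3996. It ranged from 686 to 919 under tosedostat and from 572 to 1172 under the combination. Of the 6 of these markers that were tested, CD2 and LYZ were called higher, by 0.60 and 2.03 under CHR-3996 and by 0.51 and 2.04 under the combination. None of the 6 was called under tosedostat. The median of an array was 5.04 ± 0.04 (SD, n = 3) in untreated cells and 5.26 ± 0.03 (SD, n = 3) under CHR-3996, and the 3′ minus 5′ difference of the actin control probe sets was 2.14 ± 0.17 (SD, n = 3) and 1.59 ± 0.17 (SD, n = 3). Under the combination the median was 5.29 ± 0.02 (SD, n = 3) and the actin difference 1.24 ± 0.15 (SD, n = 3). For the GAPDH control probe sets the difference was 0.44 ± 0.06 (SD, n = 3) in untreated cells and 0.45 ± 0.06 (SD, n = 3) under CHR-3996. It was 0.35 ± 0.09 (SD, n = 3) under the combination. The part of the shifts in median and actin difference in the results was not tested, except that the arrays were also rescaled, as given with the counts. Fewer cells of a kind and less RNA per cell cannot be told apart.

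The promoters of the genes at both ends of the response to CHR-3996 are shown first, since these genes carry the results on erasers, H3K9 writers and arginine writers. RefSeq windows of 250 bases before each annotated start (GRCh38.p14) were present for 42 of the 45 genes, in 61 windows. DOT1L has no entry. The windows of the 2 called genes with the largest rises and the 2 with the largest falls that have an entry are printed 5′ to 3′ on the gene's own strand. Capitals mark the GC box GGGCGG and the CCAAT box CCAAT, each on either strand.
KDM7A, chr7:140176984-140177233, minus strand: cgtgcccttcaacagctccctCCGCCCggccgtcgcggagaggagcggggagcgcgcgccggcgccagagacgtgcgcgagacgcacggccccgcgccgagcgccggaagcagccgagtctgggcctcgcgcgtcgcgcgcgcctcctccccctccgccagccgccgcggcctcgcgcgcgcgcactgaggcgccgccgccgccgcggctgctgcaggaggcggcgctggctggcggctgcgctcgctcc
KDM5B, chr1:202808422-202808671, minus strand: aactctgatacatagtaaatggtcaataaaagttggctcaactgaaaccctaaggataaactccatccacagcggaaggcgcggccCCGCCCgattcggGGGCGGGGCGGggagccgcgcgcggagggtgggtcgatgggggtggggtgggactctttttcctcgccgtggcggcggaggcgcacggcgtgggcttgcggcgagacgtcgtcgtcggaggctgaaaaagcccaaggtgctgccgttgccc
SUV39H1, upstream start, chrX:48695304-48695553, plus strand: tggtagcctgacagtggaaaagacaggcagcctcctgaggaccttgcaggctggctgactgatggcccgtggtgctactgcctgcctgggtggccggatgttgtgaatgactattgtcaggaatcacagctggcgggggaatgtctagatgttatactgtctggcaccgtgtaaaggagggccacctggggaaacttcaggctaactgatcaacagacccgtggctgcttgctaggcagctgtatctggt
SUV39H1, downstream start, chrX:48696484-48696733, plus strand: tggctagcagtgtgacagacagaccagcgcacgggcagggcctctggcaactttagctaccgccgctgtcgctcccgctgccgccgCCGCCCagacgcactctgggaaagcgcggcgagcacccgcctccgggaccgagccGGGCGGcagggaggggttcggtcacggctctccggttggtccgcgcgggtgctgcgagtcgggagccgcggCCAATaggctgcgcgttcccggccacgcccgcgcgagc
PRMT1, chr19:49677021-49677270, plus strand: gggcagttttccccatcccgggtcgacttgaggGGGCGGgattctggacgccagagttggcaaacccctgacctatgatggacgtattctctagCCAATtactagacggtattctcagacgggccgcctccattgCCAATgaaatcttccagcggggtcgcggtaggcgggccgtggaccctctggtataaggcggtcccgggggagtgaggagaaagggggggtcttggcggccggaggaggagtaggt
The KDM7A window holds 1 GC box and 50 CG dinucleotides, the KDM5B window 3 GC boxes and 27 CG dinucleotides. At SUV39H1 the upstream window has neither motif, whereas the downstream window has 2 GC boxes and 1 CCAAT box. The PRMT1 window has 1 GC box and 2 CCAAT boxes.

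Across the 61 windows the GC box was found in 47, or 77%, against 42.6% of 35116 windows of all genes, which include genes of other kinds such as noncoding ones. The share was 76.5% in the 17 windows of members higher under CHR-3996, 78.3% in the 23 windows of members that were lower, and 75% in the 20 windows of those not called. The CCAAT box was in 19 of 61 windows (31.1%, against 32% of all windows), with 5 of 17 windows of higher, 10 of 23 of lower and 4 of 20 of uncalled members. The E-box CACGTG was in 8 windows (13.1%, against 6.34%), the cyclic AMP response element TGACGTCA in 1 and the amino acid response element TGATGNAAT in none. The median number of CG dinucleotides was 25 per member window and 11 over all windows. These matches describe letters only, and windows of 1 gene with several starts can overlap.

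The first comparison asks how the transcripts of these enzymes stand after 24 hours of histone deacetylase inhibition. With CHR-3996, 14 of the 44 genes were higher and 14 were lower, where 31.7% of all genes tested were higher and 18% were lower. The medians of the groups within the family differed, with ranges that overlapped. Of the 12 erasers 6 were higher and 1 was lower, and their median log2 fold change was 0.57. Of the 7 arginine writers none was higher and 4 were lower, with a median of -0.59. The 25 lysine writers tested were split, with 8 higher and 9 lower and a median of -0.24, and the median of all genes was 0.11. These medians are of the brightest probe sets. Over all tested probe sets the median was 0.21 for erasers and 0.20 for lysine writers. The gap in medians between erasers and lysine writers was therefore nearly absent when all probe sets were counted. Genes with several probe sets weigh more in that count. All 3 CHR-3996 arrays lay above all 3 untreated arrays for 17 members and below them for 17, against 35.7% and 22.1% of all genes. The direction of the small changes rested on the scaling of the arrays. After quantile normalization 12 members were higher and 21 lower, and after the array medians were made equal 10 were higher and 21 lower, while the median of all genes moved to -0.09 and -0.11. Relative to that median of all genes, the erasers stood 0.46 higher as deposited and 0.49 higher after quantile normalization. The arginine writers stood at -0.70 and -0.88. Making the medians equal shifts every gene of an array alike, so it could not change these distances. No called member changed sign under either scaling.

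**Figure D1:**
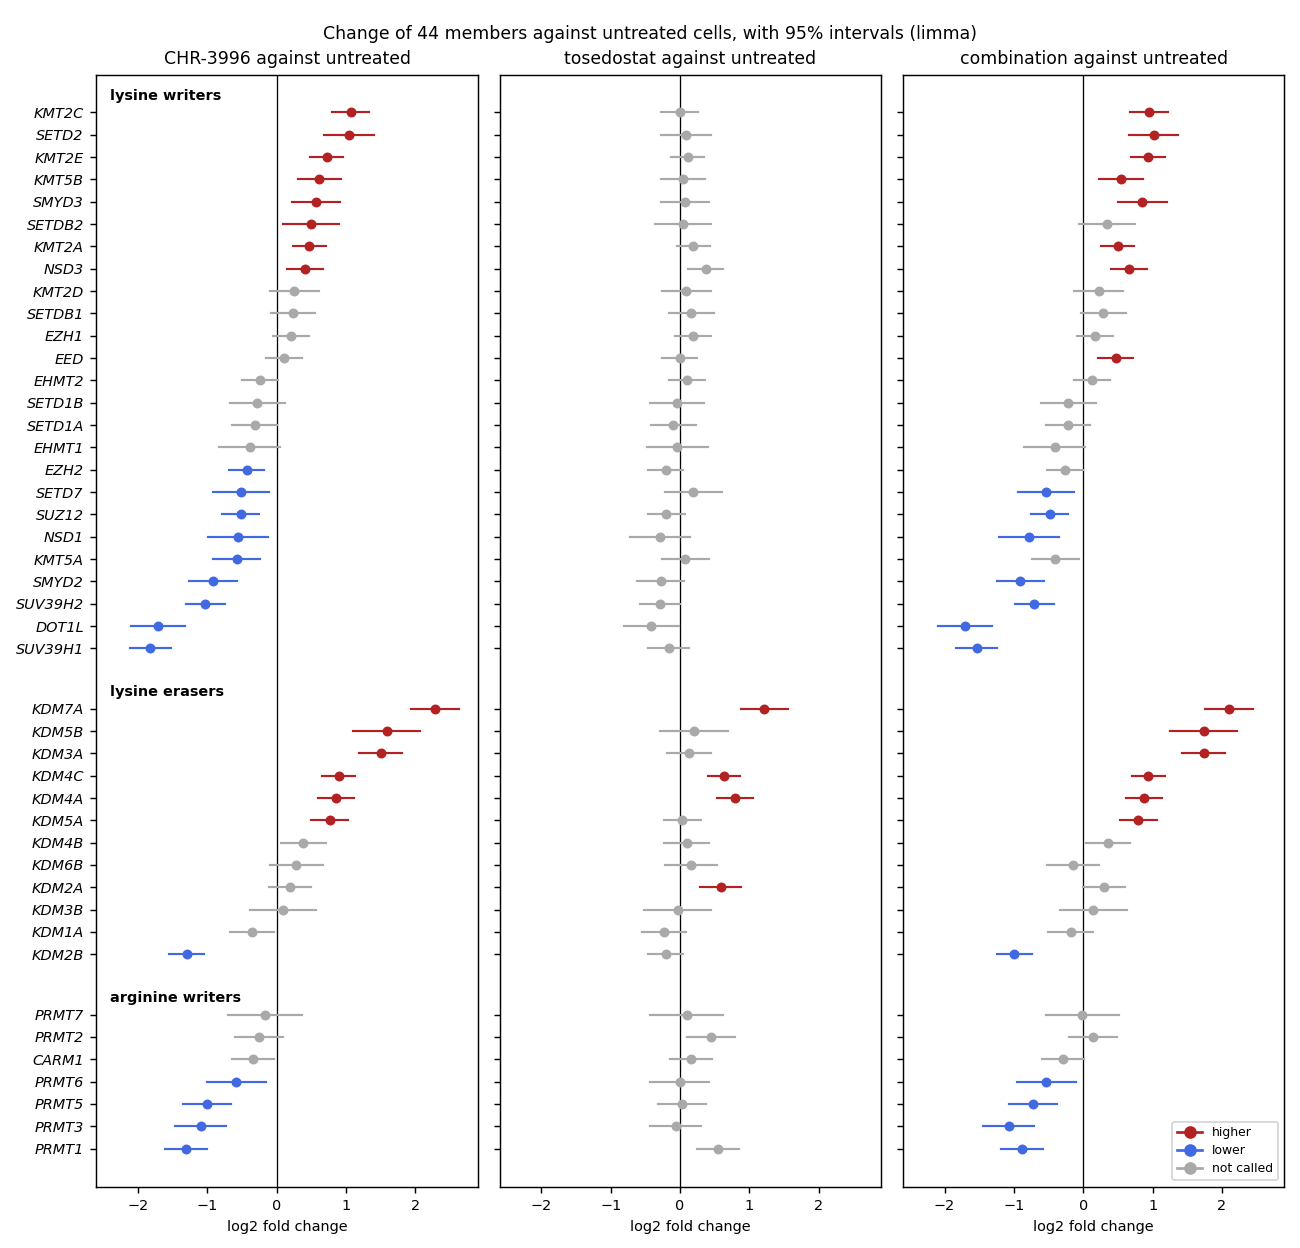
Log2 fold change of each of the 44 genes tested (rows, grouped by role and ordered by the change under CHR-3996) under CHR-3996, tosedostat and the combination, each against untreated cells, with n = 3 arrays per group. Bars are 95% intervals from limma, red and blue mark genes called higher and lower, and grey marks genes not called. Under CHR-3996 6 erasers and no arginine writer are red, and under tosedostat the 4 red genes are erasers.

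Among the genes grouped by name with the writers of H3K4 methylation, 3 of the 7 tested were higher and 1 was lower, beside 31.7% and 18% of all genes. KMT2C (MLL3), which methylates H3K4 at enhancers, read 9.46, 9.47 and 9.37 in untreated cells and 10.56, 10.49 and 10.45 with CHR-3996. It read 9.53, 9.34 and 9.42 with tosedostat and 10.63, 10.25 and 10.26 with both compounds. The CHR-3996 and combination arrays all lay above the other 6 arrays, a change of 1.07 (SE 0.12, adjusted p = 3.11e-05) under CHR-3996. Of its 5 tested probe sets, 4 were called higher, this one included, and the last was not called, at -0.17. KMT2E (MLL5), a family member that binds chromatin through its PHD finger, was higher by 0.72 (SE 0.11, adjusted p = 0.000262). It is grouped here by its name and not by an H3K4 methyltransferase activity. KMT2A (MLL1), the founding member, was higher by 0.47 (SE 0.11, adjusted p = 0.00414) with 3 of 7 probe sets called higher, but its brightest probe set was not called after quantile normalization (0.29, adjusted p = 0.0811) or with equal array medians (0.25, adjusted p = 0.0835). The monomethyltransferase SETD7 was lower by 0.52 on the log2 scale, with arrays that overlapped between the groups (adjusted p = 0.0395), and without 1 array the call was kept only on leaving out CHR-3996 replicate 2 or tosedostat replicate 3, with a largest adjusted p of 0.128. The other tested probe set of SETD7 was at -1.03 and was not called. KMT2D, SETD1A and SETD1B were not called, at 0.25, -0.32 and -0.28. SETD1A and SETD1B were called lower after quantile normalization, at -0.64 and -0.47.

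H3K36 methylation is laid down along transcribed genes by SETD2 and by the NSD enzymes, and the 3 writers of this mark moved in different directions. SETD2, which adds the last methyl group to H3K36, read 9.27, 9.25 and 9.26 in untreated cells and 9.99, 10.66 and 10.24 with CHR-3996. It read 9.30, 9.38 and 9.33 with tosedostat and 10.16, 10.49 and 10.17 with both. The untreated arrays were close together and the CHR-3996 arrays spread more widely, without overlap, for a change of 1.04 (SE 0.16, adjusted p = 0.000299). NSD3 was higher in all 6 of its tested probe sets, by 0.41 to 0.58, although its brightest was not called with equal array medians (0.19, adjusted p = 0.207). NSD1 was lower by 0.56 on the log2 scale (SE 0.20, adjusted p = 0.0366), a call that was lost without CHR-3996 replicate 1 (-0.33, adjusted p = 0.118), without untreated replicate 2 (-0.50, adjusted p = 0.106) and without untreated replicate 3 (-0.55, adjusted p = 0.0815). Of the 4 tested probe sets of NSD1, 2 were called lower, and the 4 ranged from -0.69 to -0.21.

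DOT1L, the H3K79 methyltransferase, had one of the largest falls among the members. Its brightest probe set read 8.54, 8.54 and 8.09 in untreated cells and 6.74, 6.80 and 6.49 with CHR-3996. It read 8.14, 7.97 and 7.82 with tosedostat and 6.54, 7.00 and 6.52 with the combination. Every array with CHR-3996 lay below every array without it, and the change was -1.71 (SE 0.18, 3.28-fold lower, adjusted p = 1.56e-05). A second tested probe set of DOT1L gave -0.22 under CHR-3996, not called, and -0.45 under the combination, called lower, so the size of the fall depended on the probe set.

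The H3K9 writers differed among themselves. SUV39H1, which trimethylates H3K9 in constitutive heterochromatin, had the largest fall of all members. It read 9.32, 9.18 and 9.18 in untreated cells and 7.20, 7.45 and 7.57 with CHR-3996. It read 9.05, 8.95 and 9.19 with tosedostat and 7.56, 7.61 and 7.89 with both. The arrays with CHR-3996 formed a separate low group, and the change was -1.82 (SE 0.13, 3.54-fold lower, adjusted p = 1.55e-06) in its single tested probe set. Its paralog SUV39H2 read 10.17, 10.10 and 10.18 in untreated cells and 8.99, 9.12 and 9.24 with CHR-3996, a change of -1.03 (SE 0.13, adjusted p = 6.3e-05). With tosedostat SUV39H2 read 9.73, 9.87 and 9.98, and with the combination 9.30, 9.34 and 9.69. The combination arrays lay between those of the single compounds, and both tested probe sets of SUV39H2 were lower under CHR-3996.

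The other H3K9 writers moved less. SETDB2 was called higher by 0.50 (adjusted p = 0.046), a call lost under both rescalings, at 0.12 and 0.28. On leaving out 1 array it was kept without CHR-3996 replicate 1 or combination replicate 1 or 3, and lost without each of the other 9 (adjusted p up to 0.162). Of the 5 tested probe sets of SETDB2, 3 were called higher, and the 5 ranged from 0.29 to 0.70. SETDB1, which silences retroelements, was not called at 0.23. EHMT1 (GLP) and EHMT2 (G9a), which dimethylate H3K9 in euchromatin, were not called at -0.39 and -0.24. Both were called lower after quantile normalization, at -0.69 and -0.42, and a second probe set of EHMT2 was called higher as deposited, at 0.49.

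For polycomb repressive complex 2, which methylates H3K27, the catalytic subunit EZH2 was lower by 0.43 on the log2 scale (SE 0.12, adjusted p = 0.00993) in its 1 tested probe set. The core subunit SUZ12 was lower by 0.52 on the log2 scale (SE 0.12, adjusted p = 0.00452), while its second probe set read 0.10 and was not called. EED, which binds trimethylated H3K27, was not called at 0.10. The alternative catalytic subunit EZH1 was not called at 0.21 in its brightest probe set, and another of its 4 probe sets was called lower, at -0.47.

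The H4K20 writers moved in opposite directions. KMT5A (SET8), the monomethyltransferase that is linked to the cell cycle, was lower in all 4 tested probe sets, by values from -1.44 to -0.58. KMT5B, which adds further methyl groups to H4K20, was higher by 0.62 (SE 0.14, adjusted p = 0.00435), with 2 of 3 probe sets called higher. Of the SMYD enzymes, SMYD2 was lower by 0.92 on the log2 scale (SE 0.16, adjusted p = 0.000554). SMYD3 was higher by 0.57 (SE 0.16, adjusted p = 0.0119), a call lost with equal array medians (0.35, adjusted p = 0.101).

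**Figure D2:**
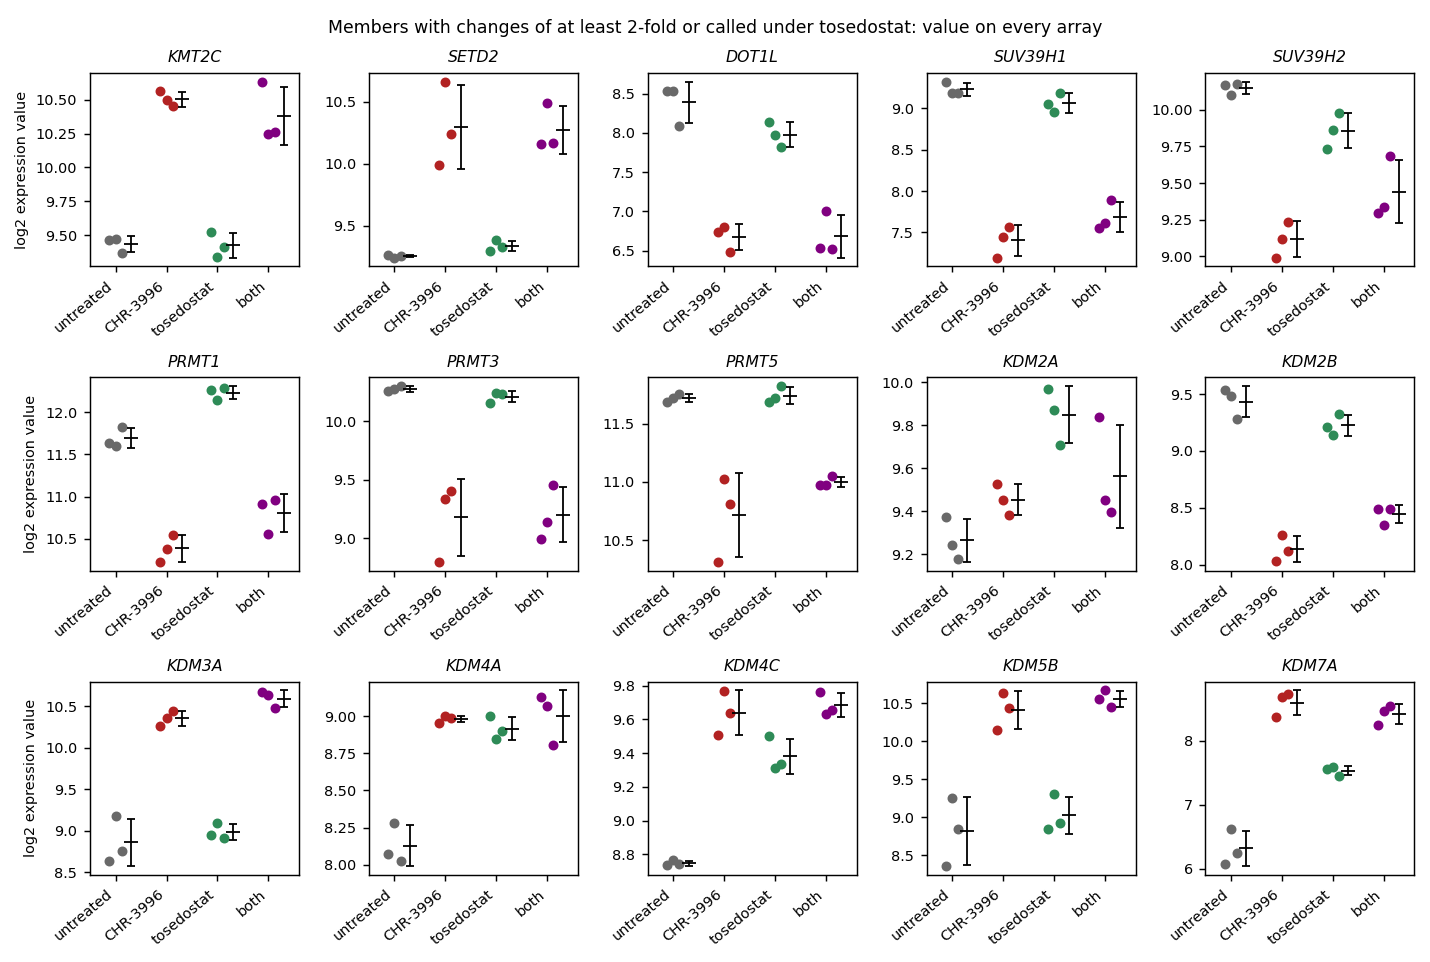
Log2 expression value (vertical axis, a separate scale in each panel) on every array for the 15 members with a called change of at least 2-fold under CHR-3996 or the combination, or a call under tosedostat or in the interaction. Points are arrays of the 4 groups (both, the combination), and the bar beside each set is the mean ± SD of n = 3. For KDM5B the 3 untreated arrays spread from 8.36 to 9.26 and the 3 CHR-3996 arrays lie from 10.14 to 10.63.

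The erasers held the largest rises. KDM7A, a Jumonji demethylase of dimethylated H3K9 and H3K27, read 6.08, 6.61 and 6.25 in untreated cells and 8.37, 8.68 and 8.72 with CHR-3996. All CHR-3996 arrays were higher, a change of 2.28 (SE 0.16, 4.85-fold, adjusted p = 1.04e-06), and its second probe set rose by 1.80. The rise relative to untreated cells was called under every alternative run.

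KDM5B, which removes methyl groups from H3K4, read 8.36, 9.26 and 8.84 in untreated cells and 10.14, 10.63 and 10.44 with CHR-3996. It read 8.85, 9.30 and 8.93 with tosedostat and 10.55, 10.67 and 10.45 with both compounds. The untreated arrays were widely spread but did not reach those with CHR-3996, and the change was 1.58 (SE 0.22, adjusted p = 0.000136). All 4 tested probe sets of KDM5B were higher, by 0.79 to 2.00. Its paralog KDM5A was higher by 0.76 (SE 0.12, adjusted p = 0.000348), with 3 of 5 probe sets called higher. KDM1A (LSD1), the flavin-dependent H3K4 demethylase, was not called at -0.36 (adjusted p = 0.0672) and was called lower after quantile normalization, at -0.53.

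Of the 5 demethylases of the KDM3 and KDM4 subfamilies 3 were higher, where 31.7% of all genes were. KDM3A, a demethylase of mono- and dimethylated H3K9 induced by hypoxia, read 8.64, 9.18 and 8.76 in untreated cells and 10.26, 10.36 and 10.44 with CHR-3996. It read 8.95, 9.10 and 8.91 with tosedostat and 10.67, 10.63 and 10.48 with both. The groups with and without CHR-3996 did not overlap, a change of 1.50 (SE 0.14, 2.82-fold, adjusted p = 8.89e-06). KDM4A, which demethylates trimethylated H3K9 and H3K36, was higher by 0.85 (SE 0.12, adjusted p = 0.000133). KDM4C, of the same subfamily, was higher by 0.89 (SE 0.11, adjusted p = 4.31e-05), with all 3 of its probe sets called higher. KDM4B fell just short at 0.38 (adjusted p = 0.0507), with 1 of its 8 probe sets called lower, and KDM3B was not called at 0.09.

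KDM2B was the single eraser called lower as deposited. This H3K36 demethylase, which also brings a polycomb repressive complex to CpG islands, read 9.54, 9.48 and 9.28 in untreated cells and 8.03, 8.26 and 8.12 with CHR-3996. It read 9.21, 9.14 and 9.32 with tosedostat and 8.49, 8.35 and 8.48 with the combination. The arrays with CHR-3996 lay below all others, and the change was -1.30 (SE 0.11, 2.46-fold lower, adjusted p = 4.79e-06). Its paralog KDM2A was not called at 0.19. KDM6B (JMJD3), the H3K27 demethylase, was not called at 0.28 in its brightest probe set, and the arrays of the groups overlapped.

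**Figure D3:**
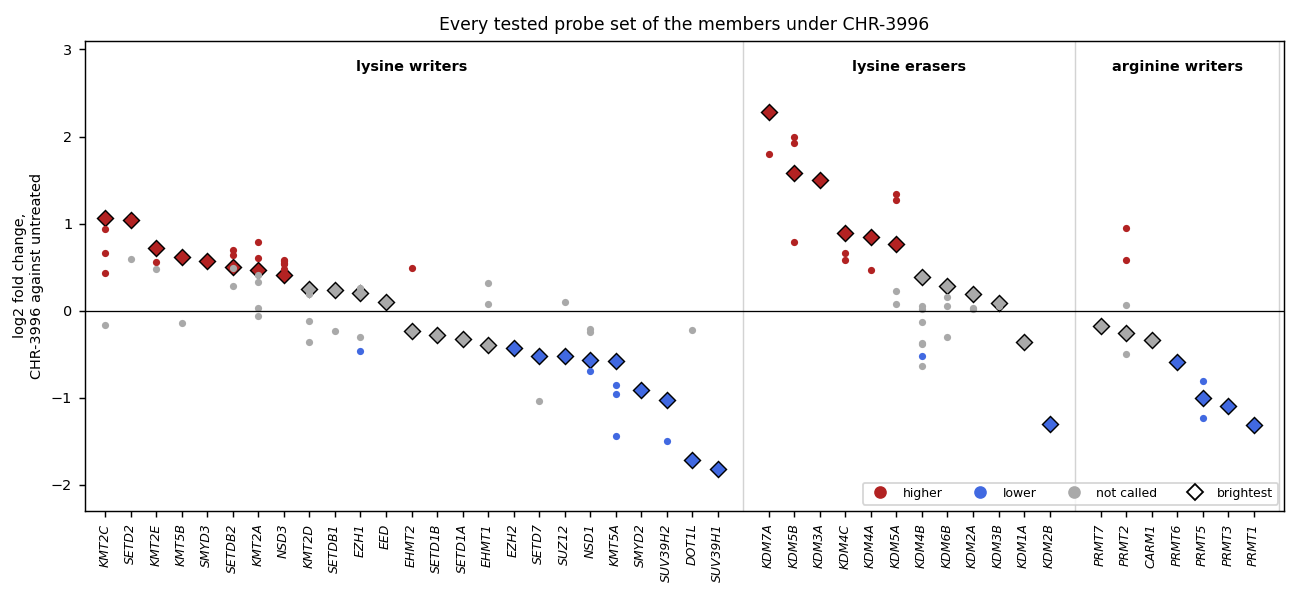
Log2 fold change of each of the 119 tested probe sets of the members, CHR-3996 against untreated cells, by gene (horizontal axis, grouped by role). Diamonds are the brightest probe set of each gene, which stands for it in the text, circles are its other probe sets, and red, blue and grey mark higher, lower and not called. No gene has called probe sets in both directions, and EZH1, EHMT2, KDM4B and PRMT2 have a called probe set beside an uncalled brightest one.

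Over all tested probe sets of the members, 41 were higher and 23 lower under CHR-3996, against 29.4% and 15.7% of all probe sets tested. For the erasers 15 of 36 were higher and 2 lower. For the arginine writers 2 of 13 were higher, both of PRMT2, and 6 were lower. For the lysine writers 24 of 70 were higher and 15 lower. The median log2 fold change over these probe sets was 0.21 for erasers, 0.20 for lysine writers and -0.50 for arginine writers. For all probe sets tested it was 0.11.

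Arginine writers place methyl groups on histones and on many RNA-binding proteins. PRMT1, the main source of asymmetric dimethylarginine, read 11.64, 11.60 and 11.83 in untreated cells and 10.23, 10.38 and 10.54 with CHR-3996. It read 12.27, 12.14 and 12.29 with tosedostat and 10.91, 10.55 and 10.96 with the combination. The arrays of each single compound lay on opposite sides of the untreated arrays, and the change under CHR-3996 was -1.31 (SE 0.14, 2.48-fold lower, adjusted p = 1.77e-05). PRMT5, which makes symmetric dimethylarginine, read 11.69, 11.72 and 11.75 in untreated cells and 10.31, 11.03 and 10.81 with CHR-3996. It read 11.69, 11.72 and 11.82 with tosedostat and 10.97, 10.98 and 11.05 with both. No array with CHR-3996 reached the others, the gene was 2.01-fold lower (SE 0.16 on the log2 scale, adjusted p = 0.000312), and all 3 tested probe sets were lower.

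PRMT3, a cytosolic enzyme whose main substrate is a ribosomal protein, read 10.25, 10.27 and 10.30 in untreated cells and 8.80, 9.33 and 9.40 with CHR-3996. It read 10.15, 10.24 and 10.23 with tosedostat and 9.00, 9.14 and 9.46 with both. The 2 groups with CHR-3996 overlapped each other and lay below the 2 without it, and the change was -1.10 (SE 0.17, adjusted p = 0.000257). PRMT6, which methylates H3R2, was lower by 0.59 on the log2 scale (SE 0.19, adjusted p = 0.0286). That call was lost without CHR-3996 replicate 1 (-0.46, adjusted p = 0.104) or replicate 3 (-0.55, adjusted p = 0.0773), and without untreated replicate 2 (-0.44, adjusted p = 0.111) or replicate 3 (-0.61, adjusted p = 0.0546). PRMT7, CARM1 (PRMT4, a coactivator of nuclear receptors) and PRMT2 were not called, at -0.17, -0.34 and -0.26. CARM1 and PRMT2 were called lower after quantile normalization, at -0.73 and -0.45, and 2 of the 5 probe sets of PRMT2 were called higher as deposited, at 0.58 and 0.95.

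Other genes of the pathway were also called in both directions. Of 26 further writers and erasers, 24 were measured, and 8 (33.3%) were higher and 7 (29.2%) lower under CHR-3996, beside 31.7% and 18% of all genes. The changes of at least 2-fold among them were in PRMT9 (1.18), JMJD1C (1.19) and the ribosomal oxygenase RIOX1 (-1.22). Of 29 partner subunits 11 (37.9%) were higher and 10 (34.5%) lower. PHF19, a subunit that recruits polycomb repressive complex 2, was at -2.75 and WDR5, the core subunit of the H3K4 methyltransferase complexes, at -1.85. WDR77, the partner of PRMT5, was at -1.60, HCFC1 at -1.28 and the histone chaperone RBBP4 at -1.09. MLLT3, a reader in DOT1L complexes, was at 1.92, PHF1 at 1.30 and JARID2 at 1.10.

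Tosedostat alone asks what aminopeptidase inhibition does to the same genes. With tosedostat 4 members were higher and none lower, where 4.25% of all genes were higher and 0.545% were lower. All 4 were erasers, KDM7A, KDM4A, KDM4C and KDM2A, so 4 of 12 erasers and none of the 32 tested writers were called in this fit, although 3 writers, PRMT1, PRMT2 and EZH1, were called higher under some of the alternatives. At an unadjusted p under 0.05 there were 9 members (20.5%, beside 18.6% of all genes), among them 3 lysine and 2 arginine writers. The tosedostat arrays did not overlap the untreated arrays in 11 members that lay above and 5 that lay below, against 20.1% and 9.16% of all genes.

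KDM7A read 7.56, 7.58 and 7.45 with tosedostat against 6.08, 6.61 and 6.25 in untreated cells. The 3 tosedostat arrays agreed closely and all lay higher, a change of 1.22 (SE 0.16, 2.33-fold, adjusted p = 0.00202), and its second probe set rose by 1.43. KDM4A read 8.07, 8.28 and 8.03 in untreated cells, 8.96, 9.00 and 8.98 with CHR-3996, 9.00, 8.85 and 8.90 with tosedostat and 9.13, 9.07 and 8.80 with both. The arrays of the 3 treated groups overlapped one another above the untreated arrays, and the change with tosedostat was 0.79 (SE 0.12, adjusted p = 0.00525).

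KDM4C read 8.73, 8.76 and 8.74 in untreated cells, 9.51, 9.77 and 9.64 with CHR-3996, 9.50, 9.31 and 9.33 with tosedostat and 9.76, 9.63 and 9.66 with both. Every treated array was higher than every untreated one, and the change with tosedostat was 0.64 (SE 0.11, adjusted p = 0.00917). Only the brightest of its 3 probe sets was called under tosedostat, the others being at 0.32 and -0.20, and the mean of the probe sets was not called. KDM2A read 9.37, 9.24 and 9.18 in untreated cells and 9.97, 9.87 and 9.71 with tosedostat. It read 9.53, 9.45 and 9.38 with CHR-3996 and 9.84, 9.45 and 9.40 with both. Its rise of 0.59 with tosedostat (SE 0.14, adjusted p = 0.0401) was the weakest of these calls, since on leaving out 1 array it was kept without CHR-3996 replicate 1 or combination replicate 1 or 3 but lost without each of the other 9, and it was lost after quantile normalization (0.49, adjusted p = 0.0929) and with equal medians (0.57, adjusted p = 0.0553). Its 3 probe sets gave 0.58 to 0.59. Over all tested probe sets of the members, 7 were higher and none lower with tosedostat, against 3.23% and 0.451% of all probe sets, and the 7 were 5 of erasers and 2 of lysine writers, 1 each of KMT2A (0.83) and EZH1 (0.60).

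PRMT1 was at 0.54 with tosedostat (SE 0.14, adjusted p = 0.0577), with all 3 arrays above the untreated ones. PRMT2 was at 0.45 (SE 0.16, adjusted p = 0.165). Same-numbered untreated and tosedostat arrays deviated together, and with the replicate number as a block both were called higher, with an adjusted p of 0.025 for PRMT1 and 0.0367 for PRMT2. PRMT1 was also called with the 60th percentile filter (adjusted p = 0.0254), the variance trend with robust estimation (0.012), the mean of the probe sets (0.0368) and without combination replicate 2 (0.0403). EZH1 was called with the mean of its probe sets, at 0.33 (adjusted p = 0.0401). Among the 24 further writers and erasers none was called with tosedostat, with 3 at an unadjusted p under 0.05, and of the 29 partner subunits 1 was, PHF1 at 0.96.

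With both compounds together, 14 members were higher and 12 lower than in untreated cells, where 34.6% of all genes were higher and 15.9% were lower. The erasers again had 6 higher and 1 lower, and their median log2 fold change was 0.58. The arginine writers had none higher and 4 lower, with a median of -0.53. The lysine writers had 8 higher and 7 lower, with a median of 0.13, and the median of all genes was 0.15. After quantile normalization 12 members were higher and 20 lower, and with equal medians 11 and 19. The combination arrays lay above all untreated arrays for 18 members and below them for 13, against 39.7% and 20.5% of all genes. Over the tested probe sets of the members 37 were higher and 21 lower, against 32% and 14.1% of all probe sets. The medians over these probe sets were 0.30 for erasers, 0.23 for lysine writers and -0.53 for arginine writers, beside 0.14 for all probe sets. This comparison shares its untreated arrays with the one of CHR-3996, so the calls of the 2 are not independent.

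KDM7A read 8.24, 8.46 and 8.53 with the combination, a change of 2.10 (SE 0.16, adjusted p = 1.57e-06). KDM3A and KDM5B were both higher by 1.73 (SE 0.14 and 0.22), and SETD2 by 1.02 (SE 0.16). On the lower side DOT1L was at -1.70 (SE 0.18), SUV39H1 at -1.54 (SE 0.13) and PRMT3 at -1.07 (SE 0.17). EED, not called under CHR-3996, was called higher with the combination, at 0.47 (SE 0.11, adjusted p = 0.00597), and lost the call with equal medians (0.22, adjusted p = 0.132); combination and CHR-3996 differed by 0.36 (SE 0.11, adjusted p = 0.316). EZH2, SETDB2 and KMT5A were not called with the combination, at -0.27, 0.35 and -0.41. KMT5A fell just short (adjusted p = 0.0504), with 3 of its 4 probe sets called lower. After quantile normalization and with equal medians KMT5A was called lower, at -0.72 and -0.65. EZH2 was likewise called lower under both rescalings, at -0.38 and -0.52. PRMT6 was lower by 0.53 on the log2 scale (adjusted p = 0.0419) with arrays that overlapped those of untreated cells. It kept that call without CHR-3996 replicate 1 or 2, combination replicate 2 or untreated replicate 1, and lost it without each of the other 8 arrays (adjusted p up to 0.152). SETD7 was lower by 0.54 on the log2 scale (adjusted p = 0.0317), and lost the call without any single combination or untreated array (adjusted p up to 0.0873).

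Adding tosedostat to CHR-3996 left no member called in either direction by limma, with 7 at an unadjusted p under 0.05 (15.9%, beside 11.1% of all genes) and 0 by the methods' t-test criteria. Over all genes 0.0577% were called, all of them higher. The member differences ranged from -0.43 to 0.42. For KDM7A the difference was -0.18, with a 95% interval from -0.52 to 0.17, and for SUV39H1 it was 0.28, from -0.01 to 0.58. PRMT1 was at 0.42, from 0.12 to 0.73, with an adjusted p of 0.327. Intervals of this width do not show that the 2 groups were alike.

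Adding CHR-3996 to tosedostat called 12 members higher and 12 lower, against 30.4% and 15.8% of all genes. PRMT1 had the largest fall, at -1.43 (SE 0.14, adjusted p = 1.35e-05), and SUV39H1 was at -1.38 (SE 0.13, adjusted p = 1.43e-05). KDM3A was higher by 1.61 and KDM5B by 1.53. KDM4A was at 0.08 (SE 0.12) and KDM2A at -0.29 (SE 0.14), and neither was called. Same-numbered tosedostat and combination arrays deviated together, and with the replicate block NSD1 (-0.51, adjusted p = 0.0079), EHMT1 (-0.37, adjusted p = 0.0181), PRMT2 (-0.31, adjusted p = 0.0365) and KDM2A (-0.29, adjusted p = 0.0381) were called lower as well.

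**Figure D4:**
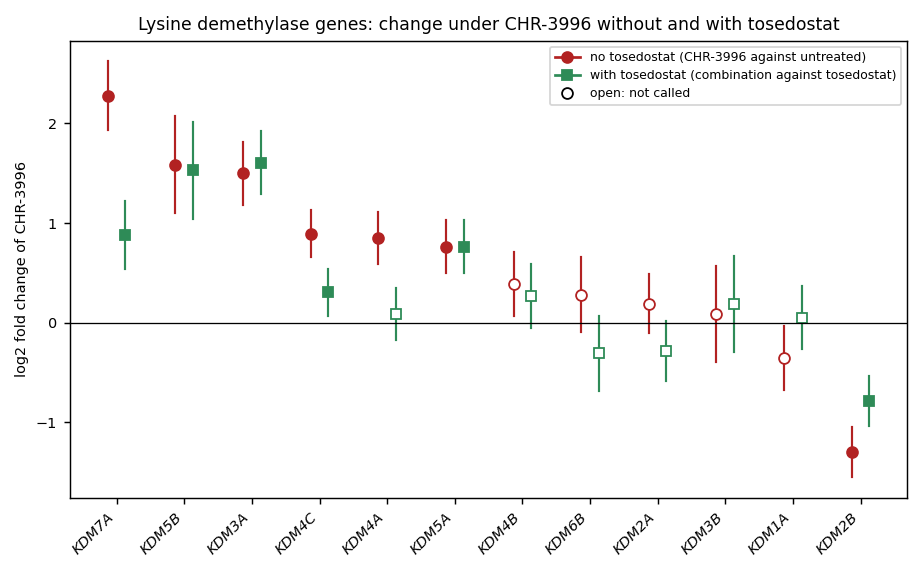
Log2 fold change for the presence of CHR-3996 in the 12 lysine eraser genes (horizontal axis), without tosedostat (red circles, CHR-3996 against untreated) and with it (green squares, combination against tosedostat). Bars are 95% intervals from limma, n = 3 arrays per group, and open symbols are not called. For KDM7A the change was 2.28 without tosedostat and 0.88 with it, while for KDM3A it was 1.50 and 1.61.

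The interaction of the compounds is the change under CHR-3996 with tosedostat present minus the change without it. Of the 44 members 1 was called, KDM7A, lower by 1.40 on the log2 scale (SE 0.22, 95% interval -1.88 to -0.91, adjusted p = 0.0379), where 0.244% of all genes were lower and 0.0321% were higher. CHR-3996 changed KDM7A by 2.28 without tosedostat and by 0.88 with it. The value was -1.18 in its second probe set, which was not called (adjusted p = 0.19). Leaving out 1 array at a time gave values from -1.55 to -1.28, and the call was kept without untreated replicate 2 (adjusted p = 0.0264) and without CHR-3996 replicate 1 (adjusted p = 0.031) but lost without each of the other 10 arrays, where the adjusted p ran up to 0.106. KDM4A (-0.77, SE 0.17, adjusted p = 0.117), KDM4C (-0.59, SE 0.15, adjusted p = 0.189) and KDM2A (-0.48, SE 0.19, adjusted p = 0.424) were not called. SUV39H2 and KDM2B had positive values, 0.61 (SE 0.18, adjusted p = 0.255) and 0.51 (SE 0.16, adjusted p = 0.283), and were not called either. An unadjusted p under 0.05 was reached by 10 members (22.7%, beside 11.2% of all genes).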

How the data were processed

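Gene expression was measured in 12 H929 samples, 3 per group, on Affymetrix U133 Plus 2.0 arrays. The authors amplified and biotin-labelled the RNA and normalized the arrays in dChip, and the deposited values are log2 expression values. The settings of dChip (version, normalization, probe summary) are details not given in the sources used here, and the number of arrays limits the precision.

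Control probe sets (62) were removed, and of the remaining 54613 those exceeding the 40th percentile on 3 or more of the arrays, 36395, were kept. limma 3.58.1 in R 4.3.3 was fitted with 1 term per group (8 residual degrees of freedom) and 6 contrasts, with Benjamini-Hochberg adjustment at 0.05, and was tested on simulated data. A gene is its brightest tested probe set with 1 symbol. Values on every array are given for members called with a log2 fold change of at least 1 under CHR-3996 or the combination, or called under tosedostat or in the interaction; others are given by their change. In the further lists, genes called with a change of that size under CHR-3996 are named. The members and lists were chosen with earlier results of these data known.

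The labels number the replicates alike in each group. After subtraction of group means, arrays of the same number correlated above 0.1 in each pair between untreated and tosedostat samples (lowest r 0.126), tosedostat and combination (0.19), and CHR-3996 and combination (0.179). Between untreated samples and CHR-3996 (0.036) or the combination (0.098) 1 or more pairs did not. Alternatives were other scalings, filters and probe set rules, a replicate block, a variance trend, a fit to the compared groups, the methods' t-test and leaving out each array. Figures used matplotlib 3.10.9 in Python 3.11.15. Sequences came from RefSeq.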

Additional observations from a re-analysis of the deposited data

Results flagged for a closer look

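The change of KDM7A under CHR-3996 differed with the presence of tosedostat by a test of the difference itself: the interaction was -1.40 on the log2 scale (adjusted p = 0.0379, limma). CHR-3996 changed KDM7A by 2.28 without tosedostat and by 0.88 with it, and tosedostat changed it by 1.22 without CHR-3996 and by -0.18 with it. Both single changes and the interaction share arrays, so they are not separate evidence. The interaction call was fragile. On leaving out 1 array at a time it was lost in 10 of 12 fits, with an adjusted p up to 0.106 in limma. It was also lost without a filter (adjusted p = 0.118), and the second probe set of KDM7A was not called.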

How the results depend on the processing

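No member called under CHR-3996 or the combination changed direction in any of the 20 alternatives, and of 1080 values 1011 kept their call and 69 lost it. Many of these alternatives could not change a direction. The replicate block, the variance trend, the fit to the compared groups and leaving out an array of another group keep the group means. The filters change no value of a probe set either. Of the 142 probe sets of the members 119 passed the filter on low values, which does not measure signal over background. The cause of each lost call was not tested. Requiring a 2-fold change as well left 5 members higher and 7 lower under CHR-3996, 1 higher under tosedostat, 4 higher and 3 lower under the combination, and 2 higher and 4 lower for the combination against tosedostat. The methods' t-test criteria gave 4 and 6, then 1, 4 and 3, and 2 and 3. Quantile normalization gave 20 members lower under the combination and 19 lower for the combination against tosedostat, and equal array medians gave 19 lower under the combination. For the interaction, the mean of the probe sets called 1 member higher (SUV39H2), testing without a filter called 0 lower (KDM7A at adjusted p = 0.118), and the 60th percentile filter and the variance trend with robust estimation each called 2 lower (KDM4A added).

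Leaving out each array in turn gave 13 to 15 members higher and 11 to 18 lower under CHR-3996, 14 to 15 and 10 to 13 under the combination, 9 to 13 and 9 to 13 for the combination against tosedostat, 3 to 4 and 0 under tosedostat, 0 and 0 for the combination against CHR-3996, and 0 higher and 0 to 1 lower for the interaction. SETD7 lost its call under CHR-3996 in 10 of these 12 fits (adjusted p 0.00161 to 0.128) and under the combination in 6. SETDB2 lost it in 9 of 12 (adjusted p 0.00832 to 0.162), and PRMT6 in 4 under CHR-3996 and in 8 under the combination. With the replicate number as a block, CHR-3996 had 15 members higher and 18 lower, and the combination 17 and 14. The lowest correlation of same-numbered arrays with untreated ones was 0.036 for CHR-3996 and 0.098 for the combination. For tosedostat it was 0.126. The interaction under the block was -1.40 for KDM7A (adjusted p = 0.0242). The calls that the block added under tosedostat and for the combination against tosedostat stand in the report, and it changed no other call there.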
